A study of Homo sapiens with 6 samples.

Results

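The FGF ligand genes FGF1, FGF2, FGF5 and FGF7, the receptor genes FGFR1 to FGFR4 and the feedback genes SPRY2 and SPRY4 were followed in LX-2 cells. LX-2 is a line of immortalised stellate cells, the vitamin A storing, collagen-producing cells of human liver. The genes of interest, chosen by name, are 10 of the 21533 listed in each table. All 6 samples were LX-2 cells in medium with 2% serum, transfected with siRNA and given palmitic acid, a saturated fat, 24 h before RNA was taken. The groups were 3 samples with control siRNA and 3 with an siRNA against PERK, the endoplasmic reticulum stress kinase encoded by EIF2AK3. Whether that siRNA was 1 sequence or a pool, and whether the samples of a group were separate cultures, the labels do not state. The p-values therefore speak for the variation among these 6 samples alone, part or all of which may be technical, and no group without palmitic acid was analysed here.

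Fibroblast growth factors are secreted ligands that bind receptor tyrosine kinases together with heparan sulfate on the cell surface. The active receptor phosphorylates the docking protein FRS2, which passes the signal through GRB2, SOS and RAS to the ERK kinases. ERK signalling in turn induces Sprouty and Spred proteins and dual-specificity phosphatases, which restrain the same route. In the liver, activated stellate cells are a known source of FGF2, and the receptor FGFR4 is best known from hepatocytes.

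With PERK siRNA, 6 of the 10 genes rose and 1 fell. FGF1, FGF2, FGF5, FGFR1, FGFR3 and SPRY2 were higher, SPRY4 was lower and FGFR4 did not pass the test. FGF7 was under the filter on low counts and FGFR2 had no read in any sample. Of the 8 tested genes 7 were called, beside 69.5% of all 12973 genes tested, so the number called is near what the whole transcriptome gave. Across all genes 34.4% rose and 35% fell, where the 8 tested genes gave 6 and 1. The groups did not overlap for 7 of the 8, against 71.8% of all genes. Against a null of a 1.2-fold change 6 of the 8 passed, and 36.1% of all genes did. The median log2 fold change of the 8 was 0.38, beside 0.00 over all genes, and the median size regardless of sign was 0.68 against 0.28. The tested genes had at least 25 reads in every sample, so none passed the filter on low counts through 1 group alone.

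**Figure D1:**
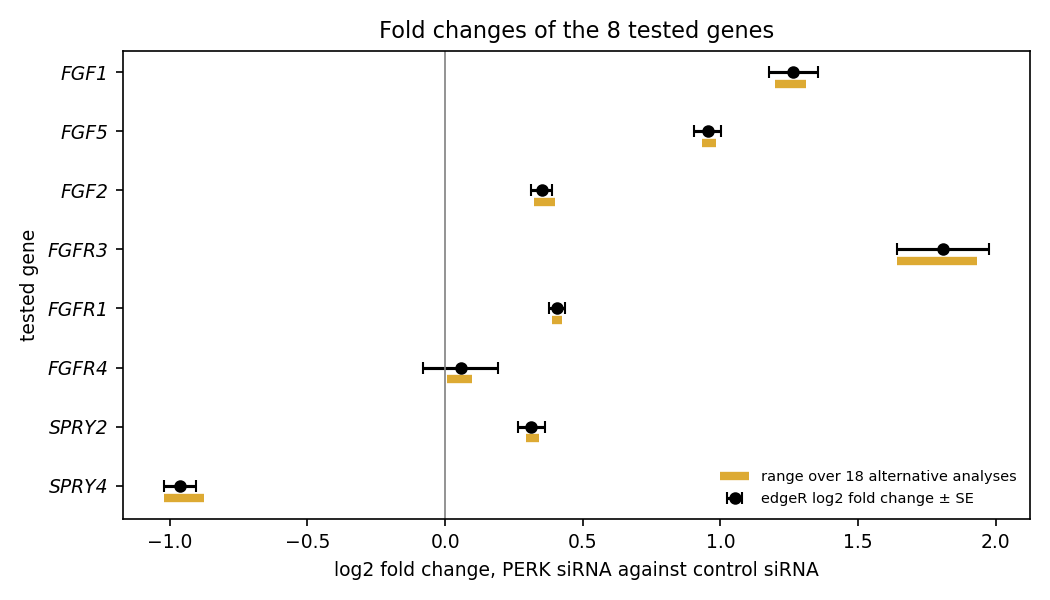
Log2 fold changes of the 8 tested genes (horizontal axis, PERK siRNA against control siRNA, 3 samples each) by edgeR, with black points and bars for the value ± SE and yellow bars for the range over 18 alternative analyses. SPRY4 lies at -0.96 and the other called genes lie right of 0, between 0.31 for SPRY2 and 1.81 for FGFR3, while FGFR4 lies at 0.06.

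The samples and their labels were checked as follows. Total exon reads ran from 18560051 to 19585872 in control samples and from 17937141 to 19535253 in PERK siRNA samples. EIF2AK3, the targeted gene, measured 12.9, 13.0 and 13.9 CPM under control siRNA, and under PERK siRNA it measured 4.37, 4.96 and 5.51. CPM are exon reads scaled to library size with edgeR's TMM factors. Of 15 stellate or mesenchymal markers 13 were tested, 9 rose and 2 fell, and their summed level was 5785 to 5925 TPM in controls and 6552 to 6573 TPM with PERK siRNA, TPM being reads per exon length scaled to the same sum in every sample. Over all genes tested 34.4% rose and 35% fell, the shares to set beside the called counts of each marker list here. The stellate marker DES had at most 1 read in any sample and LRAT at most 5. Of 10 hepatocyte markers 7, ALB among them, had no read, and the list summed to 3.25 to 4.12 TPM in controls and 2.86 to 3.54 TPM with PERK siRNA. The 6 cholangiocyte markers, CFTR at 0 among them, summed to 132.9 to 142.5 TPM and 87.97 to 97.75 TPM, mostly SOX9, with 2 lower of 3 tested. The 8 endothelial markers, LYVE1 and CLEC4G at 0, summed to 5.90 to 6.12 TPM and 1.85 to 2.43 TPM, with 1 lower of 3 tested. The lower one was PECAM1, with a mean of 4.44 TPM in controls and 0.31 TPM with PERK siRNA, while KDR and VWF did not pass. The 8 macrophage or leukocyte markers, CD163, MARCO and CD3E at 0, summed to 131.6 to 138.4 TPM and 120.0 to 123.5 TPM, mostly CD68. Of 3 tested 2 were lower, CD14 and CSF1R. PECAM1 and CSF1R cleared the filter on low counts only through the control group, where they are high. In the PERK siRNA samples PECAM1 held 9, 14 and 13 reads and CSF1R held 5, 12 and 15. The lower calls of PECAM1 and CSF1R are therefore given as a description. The part of these markers in the results was not tested, and in bulk RNA fewer cells of a type and less RNA per cell cannot be told apart.

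Per exon length, the 10 genes spanned a wide range of levels in control cells, and their order changed with PERK siRNA at 2 places. In controls FGFR1 was highest at 52.4 ± 1.51 TPM (SD, n = 3, as for all means here), followed by FGF2 at 39.1 ± 2.52, SPRY2 at 32.9 ± 0.73 and SPRY4 at 32.8 ± 1.06 TPM. The sample ranges of SPRY2 and SPRY4 overlapped in the controls, so their order there was not resolved. FGF5 stood at 16.1 ± 0.62, FGF1 at 4.82 ± 0.24, FGFR4 at 3.82 ± 0.15, FGFR3 at 1.33 ± 0.29 and FGF7 at 0.26 ± 0.06 TPM, and the ranges of these neighbours did not overlap. With PERK siRNA SPRY4 fell below both SPRY2 and FGF5, and FGFR3 moved above FGFR4. The ranges of neighbouring genes did not overlap in that group. These orders rest on the deposited exon lengths, which differ from the exon bases of the GENCODE v29 annotation. For FGFR1 they are 8637 and 13842 bases, and for FGF2 6801 and 6775. The rank of FGFR1 above FGF2 therefore holds for the deposited lengths only.

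**Figure D2:**
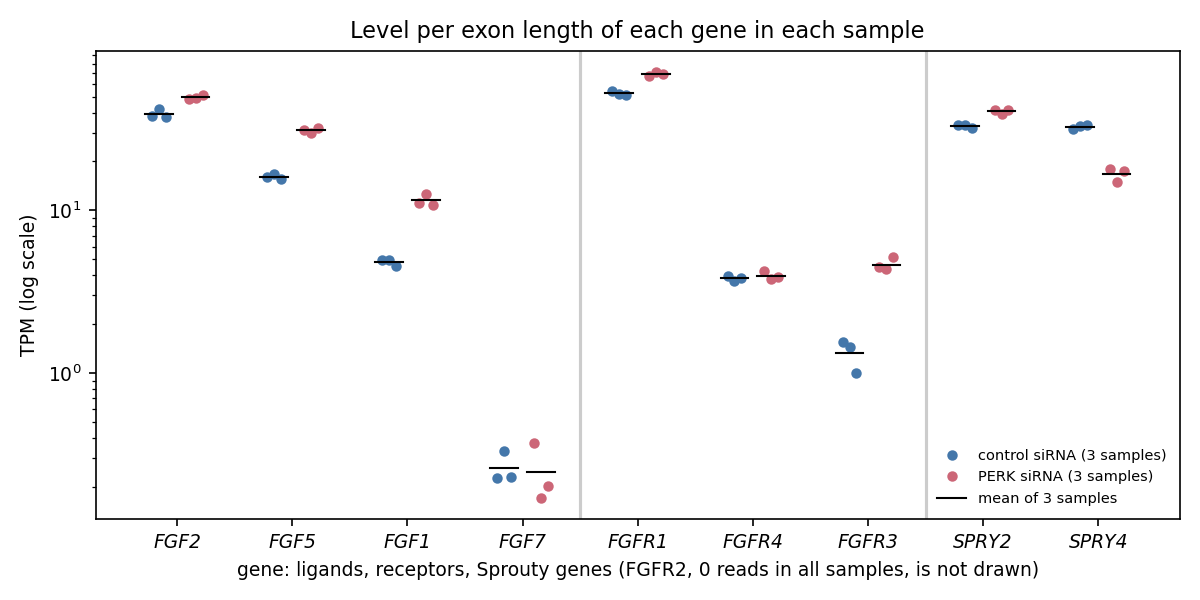
Level of each gene in TPM (vertical log axis) in each of 3 control siRNA samples (blue) and 3 PERK siRNA samples (red), with the mean of each group as a black line. FGFR1 is highest in both groups by the deposited exon lengths, and FGF7 reaches at most 0.37 TPM in any sample. The red points lie below the blue ones for SPRY4 while those of FGFR4 and FGF7 overlap.

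Among the ligands, FGF1 rose most. FGF1 encodes acidic FGF, a ligand that binds all the FGF receptors and is exported without a classical signal peptide (ENSG00000113578, chromosome 5, 142592178 to 142698070, minus strand, GRCh38). The control samples read 7.12, 6.97 and 6.52 CPM, and those with PERK siRNA read 16.1, 17.96 and 15.5. Every PERK siRNA sample was above every control sample, and the means were 6.87 ± 0.31 and 16.5 ± 1.28 CPM. The log2 fold change was 1.27 (SE 0.09), 2.40-fold (adjusted p = 2.5e-13). This and every adjusted p below, unless said otherwise, is from the quasi-likelihood test of edgeR with Benjamini-Hochberg adjustment. The tested genes with the most similar course over the 6 samples, among genes outside the 10 whose mean log2 CPM reached 3, were PEDS1 and FITM2. Their centred log2 CPM differed from that of FGF1 by a root mean square of 0.05 and 0.06. Their log2 fold changes were 1.26 and 1.22. With 2 groups such a search mostly picks genes of like fold change, and shared control was not tested. For PEDS1 75.3% of the reads were placed uniquely.

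FGF5, which encodes a ligand known for ending the growth phase of hair follicles (ENSG00000138675, chromosome 4, 80266599 to 80336680, plus strand), rose by less than FGF1. Its values were 25.9, 27.0 and 25.4 CPM in controls and 51.2, 48.4 and 52.1 CPM with PERK siRNA. The groups were clearly apart, with means of 26.1 ± 0.79 and 50.6 ± 1.94 CPM. The log2 fold change was 0.95 (SE 0.05, adjusted p = 1.5e-16). The gene shares 2.27% of its annotated exon bases with CFAP299, on the same strand.

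FGF2, basic FGF, is a heparin-binding mitogen for fibroblasts and stellate cells (ENSG00000138685, chromosome 4, 122826708 to 122898236, plus strand). It was the most abundant of these ligands per exon length and had the smallest rise of the called ligands. The controls had 73.8, 81.1 and 73.5 CPM and the PERK siRNA samples 95.1, 95.4 and 100.7 CPM, again without overlap. The means were 76.1 ± 4.31 and 97.1 ± 3.19 CPM, and the change was 0.35 on the log2 scale (SE 0.04, adjusted p = 4.5e-09). FGF2 shares 804 of its exon bases, 11.9%, with NUDT6, which lies on the opposite strand, and 88.9% of its reads were placed uniquely. NUDT6 was higher too, averaging 4.06 ± 0.67 and 5.94 ± 0.69 CPM in the groups (0.54, SE 0.14, adjusted p = 0.0010), with 52.4% of its reads placed uniquely. The library kit kept strand, but whether the counting used it is not stated in the labels, so reads of these 2 genes may not be told apart. On uniquely placed reads the FGF2 change was 0.34 and was still called, while the NUDT6 call was lost (0.31, adjusted p = 0.11).

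FGF7, keratinocyte growth factor, a mesenchymal ligand that acts on epithelium through FGFR2 (ENSG00000140285, chromosome 15, 49423096 to 49488775, plus strand), was near the limit of detection. The control samples held 8, 11 and 8 reads and the PERK siRNA samples 12, 6 and 7, so the groups overlapped. The gene did not pass the filter on low counts. Without the filter its log2 fold change was -0.09 (SE 0.50, adjusted p = 0.91). Summed over the 4 ligand genes, the level was 60.3 ± 3.31 TPM in controls and 92.5 ± 1.66 TPM with PERK siRNA. The share of FGF2 in that sum was 64.8 ± 0.74% and 53.6 ± 0.74%, that of FGF5 26.8 ± 0.47% and 33.6 ± 0.89%, and that of FGF1 8.0 ± 0.40% and 12.5 ± 1.17%.

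FGFR1 was by far the most abundant receptor gene. It encodes the receptor tyrosine kinase typical of mesenchymal cells (ENSG00000077782, chromosome 8, 38400215 to 38468834, minus strand). Its values were 133.7, 128.1 and 127.1 CPM in controls and 168.5, 175.0 and 171.6 CPM with PERK siRNA. All PERK siRNA samples lay above all controls, with means of 129.6 ± 3.58 and 171.7 ± 3.24 CPM and a change of 0.41 in log2 (SE 0.03, adjusted p = 3.5e-13). It shares 0.997% of its exon bases with LETM2, on the opposite strand. FGFR1 made up 91.1 ± 0.31% of the summed TPM of the 4 receptor genes in controls and 88.9 ± 0.73% with PERK siRNA.

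FGFR3 rose more than any other of the 10 genes, from a low level. It encodes a receptor best known as a brake on bone growth (ENSG00000068078, chromosome 4, 1793293 to 1808872, plus strand). Its reads numbered 39, 34 and 25 in the control samples and 103, 108 and 127 in the PERK siRNA samples. In CPM these were 1.98, 1.82 and 1.29 against 5.77, 5.53 and 6.61, so the highest control lay well under the lowest PERK siRNA sample. The means were 1.70 ± 0.36 and 5.97 ± 0.57 CPM, and the log2 fold change was 1.81 (SE 0.17, adjusted p = 8.5e-11). Its share of receptor TPM was 2.31 ± 0.44% in controls and 5.98 ± 0.56% with PERK siRNA. The genes with the most similar course, chosen as for FGF1, were ITGB3 and KLHL24, at root mean square differences of 0.11 and 0.12 in log2 CPM. Their log2 fold changes were 1.91 and 1.68, and 57.1% of the ITGB3 reads were placed uniquely.

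FGFR4, the receptor for the bile acid hormone FGF19 in hepatocytes (ENSG00000160867, chromosome 5, 177086886 to 177098144, plus strand), did not pass the test. Its values were 4.27, 3.91 and 4.14 CPM in controls and 4.59, 4.04 and 4.21 CPM with PERK siRNA, and the groups overlapped. The log2 fold change was 0.06 (SE 0.14, adjusted p = 0.72), with a 95% normal interval from -0.21 to 0.32. Within samples the ratio of FGFR3 to FGFR4 in TPM was 0.39, 0.39 and 0.26 in controls and 1.06, 1.15 and 1.32 with PERK siRNA, so the order of this pair was opposite in the groups. FGFR2 (ENSG00000066468, chromosome 10, 121478334 to 121598458, minus strand), the receptor of epithelial cells for FGF7, had 0 reads in all 6 samples. At these depths 3 reads, the floor that a count of 0 allows, correspond to 0.0479 to 0.0524 TPM per sample, which covers counting error only.

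Promoter sequence is shown for FGFR3 and FGFR4 because both are scarce here and the test called FGFR3 and not FGFR4. The bases lie upstream of the RefSeq start (GRCh38.p14, plus strand, chr4:1793043-1793292 for FGFR3 and chr5:177086665-177086885 for FGFR4), written along the gene's strand and ending before any annotated exon base. Capitals mark the GC box GGGCGG, a motif bound by SP1 family factors, on either strand.
FGFR3: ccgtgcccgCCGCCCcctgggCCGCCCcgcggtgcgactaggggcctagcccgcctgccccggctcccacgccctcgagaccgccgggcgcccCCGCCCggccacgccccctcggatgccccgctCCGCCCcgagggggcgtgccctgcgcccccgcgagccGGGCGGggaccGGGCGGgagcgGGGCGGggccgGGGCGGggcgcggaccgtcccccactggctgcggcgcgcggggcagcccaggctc
FGFR4: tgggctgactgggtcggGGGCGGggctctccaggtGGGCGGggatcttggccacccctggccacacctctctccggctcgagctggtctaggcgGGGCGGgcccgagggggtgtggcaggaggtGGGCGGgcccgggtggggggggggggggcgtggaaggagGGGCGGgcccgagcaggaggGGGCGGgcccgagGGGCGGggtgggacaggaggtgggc
RefSeq gives 1 start for FGFR3 and 2 for FGFR4, and the window of the start listed first is shown. In these windows of 250 bases upstream, FGFR3 had 8 matches to the GC box and FGFR4 had 7, and 86.8% and 79.6% of the bases were G or C. The other FGFR4 window had no match and 57.2% G or C. A match was present in 42.6% of all 35116 RefSeq windows of that length. Both sequences are dense in the same motif, which is a description of the letters and not of bound factors.

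The Sprouty genes moved in opposite directions. SPRY4 (ENSG00000187678, chromosome 5, 142310427 to 142326455, minus strand) encodes a Sprouty protein that inhibits RAS and ERK signalling below receptor kinases. Control samples read 47.7, 49.7 and 51.0 CPM, and PERK siRNA samples 27.5, 22.4 and 26.4. All PERK siRNA samples were below all controls, with means of 49.5 ± 1.65 and 25.4 ± 2.72 CPM. SPRY4 fell by 0.96 on the log2 scale (SE 0.06, adjusted p = 1.1e-13). SPRY2 (ENSG00000136158, chromosome 13, 80335976 to 80340951, minus strand), another inhibitor of the same route, read 30.7, 30.5 and 29.8 CPM under control siRNA and 38.6, 36.2 and 38.2 under PERK siRNA. It was higher in every PERK siRNA sample, with means of 30.3 ± 0.49 and 37.7 ± 1.31 CPM and a log2 change of 0.31 (SE 0.05, adjusted p = 2.1e-06). Against a null of a 1.2-fold change SPRY2 did not pass (adjusted p = 0.14). Per exon length the ratio of SPRY4 to SPRY2 was 0.95, 1.00 and 1.05 in the controls and 0.44, 0.38 and 0.42 with PERK siRNA. By the deposited lengths the genes were thus about equal in controls, and SPRY2 was ahead in every PERK siRNA sample. Those lengths are 5262 bases for SPRY4 and 3213 for SPRY2, against 6565 and 3038 in GENCODE v29. The near equality depends on them, and the change of the ratio between the groups does not.

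Promoter sequence is shown for SPRY2 and SPRY4 as the Sprouty pair that moved apart (GRCh38.p14, minus strand, chr13:80341127-80341376 for SPRY2 and chr5:142324418-142324497 for SPRY4). It is written and marked as for the receptors, and only the bases outside annotated exons are given, which leaves 80 for SPRY4. The SPRY4 window lies inside the annotated gene, which on this strand begins at 142326455. Its 170 bases next to the start are annotated exon, so the 80 shown do not adjoin that start.
SPRY2: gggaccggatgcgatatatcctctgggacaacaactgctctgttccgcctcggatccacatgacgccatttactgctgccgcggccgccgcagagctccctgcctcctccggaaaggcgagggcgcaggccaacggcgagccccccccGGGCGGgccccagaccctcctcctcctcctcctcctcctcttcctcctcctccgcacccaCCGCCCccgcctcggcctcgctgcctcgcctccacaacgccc
SPRY4: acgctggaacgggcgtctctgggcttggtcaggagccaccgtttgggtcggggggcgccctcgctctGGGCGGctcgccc
The full windows held 2 GC boxes for SPRY2 and 1 for SPRY4. RefSeq gives 3 starts for SPRY2, of which the first listed is shown, and the windows of the others held none. Further motifs were searched on both strands in the 20 upstream windows that RefSeq starts gave for 9 of the 10 genes. The AP-1 site TGANTCA was found in 1 window, of FGF1, and in 6.57% of all windows. FGF1 has 4 windows, and this match lies in bases of its window that are annotated exon of the gene. The ATF4 and C/EBP element TGATGNAA was found in 1 window, of FGFR2, and in 3.14% of all. The cyclic AMP element TGACGTCA (1.65% of all windows) and the ETS core CGGAAG (16.5%) were found in none of the 20. A GC box was found in 10 windows, of 8 genes. The absence of these letters says nothing of the factors themselves.

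**Figure D3:**
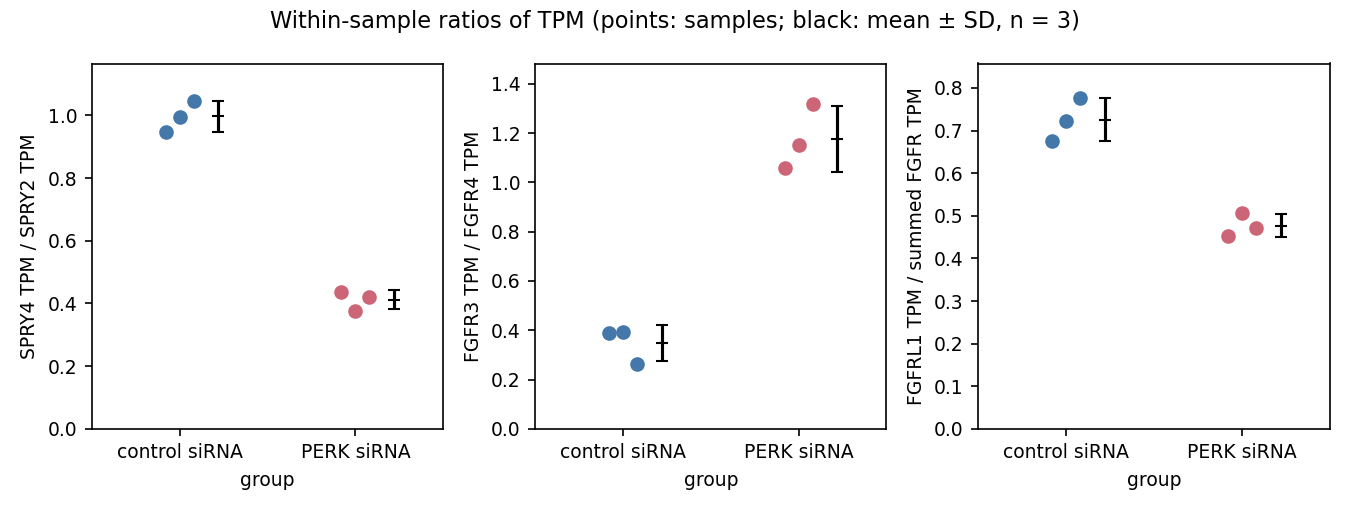
Ratios of TPM within each sample (vertical axes starting at 0) for SPRY4 to SPRY2, FGFR3 to FGFR4, and FGFRL1 to the summed FGFR1 to FGFR4, with 1 point per sample and the mean ± SD (n = 3) in black. The SPRY4 to SPRY2 ratio lies at 0.95 to 1.05 in controls and 0.38 to 0.44 with PERK siRNA, and the FGFR3 to FGFR4 ratio at 0.26 to 0.39 and 1.06 to 1.32.

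SPRY4 and FGF1 are neighbours on chromosome 5. The gap between them is 265722 bases, with no protein-coding gene in it and the SPRY4-AS1 RNA gene, on the opposite strand, overlapping both. FGF1 rose and SPRY4 fell, so these neighbours moved in opposite directions. FGFR3, FGF5 and FGF2 share chromosome 4 but lie far apart, with 347 and 170 protein-coding genes between them.

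Other parts of the pathway were read from lists written with earlier results of these data known. Of 18 further FGF ligand genes only 3 were expressed enough to test, and 6 had no read in any sample. FGF22 held 8, 2 and 7 reads in the control samples and 13, 15 and 12 with PERK siRNA, and it cleared the filter on low counts only through the PERK siRNA group, where it is high. Its edgeR call (1.24, SE 0.43, adjusted p = 0.011) is therefore given as a description, and with a filter of 1 CPM in 3 samples it was not tested. DESeq2 did not call it (adjusted p = 0.10), nor did edgeR once control sample 2 was left out (adjusted p = 0.092). FGF12 (0.41, adjusted p = 0.19) and FGF14 (0.32, adjusted p = 0.31) did not pass.

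Co-receptors and binding proteins gave 4 rises and 3 falls among 10 tested, beside 34.4% higher and 35% lower over all genes. Against a 1.2-fold change there were 2 of each, beside 36.1% of all genes called in either direction. FGFRL1, a receptor-like protein that binds FGFs and has no kinase domain, was slightly lower, reading 49.6, 50.6 and 53.8 CPM in controls against 42.9, 49.2 and 45.5 under PERK siRNA, without overlap (-0.16, SE 0.05, adjusted p = 0.0042). Its TPM relative to the sum of FGFR1 to FGFR4 was 0.73 ± 0.05 in controls and 0.48 ± 0.03 with PERK siRNA. The adhesion genes CDH2, N-cadherin (-0.42), and NCAM1 (0.36), both known to associate with FGFR1, moved apart. KLB, the co-receptor for FGF19 and FGF21, had 3 to 14 reads and was not tested, and KL had no read.

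Genes of heparan sulfate, the sugar that FGFs need to bind their receptors, changed in both directions. Of 22 tested, 12 fell and 6 rose, with a median of -0.24, beside 35% lower and 34.4% higher over all genes. Against a 1.2-fold change the counts were 6 lower and 4 higher, beside 36.1% of all genes called in either direction. SULF2, named after its values were seen, is among the 12 falls. It had 18, 20 and 21 reads in controls and 5, 7 and 4 with PERK siRNA. It cleared the filter on low counts only through the control group, where it is high, so its call is a description. The cell surface proteoglycan gene SDC1, syndecan-1, fell from 227.0 ± 3.98 to 132.0 ± 3.02 CPM (-0.78), while GPC1, glypican-1, rose from 274.4 ± 7.61 to 346.2 ± 3.09 CPM (0.34). HSPG2, perlecan of the basement membrane, rose as well (0.69), and NDST1, which starts the sulfation of the chain, fell (-0.41). SDC4, syndecan-4, was lower by less (-0.26, adjusted p = 0.58 against a 1.2-fold change).

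Among the receptor adaptors FRS2 stood out in size, and the list as a whole was mixed. It gave 5 rises and 6 falls among 15, beside 34.4% higher and 35% lower over all genes. The rises numbered 3 without control sample 1 and 3 with DESeq2. Against a 1.2-fold change 2 rose and 3 fell, near the 36.1% of all genes called in either direction. FRS2, the docking protein of FGF receptors, read 47.2, 44.4 and 43.7 CPM in controls, against 20.6, 20.1 and 20.5 under PERK siRNA. That is a fall of all PERK siRNA samples below all controls, by -1.14 in log2 (SE 0.05, adjusted p = 9.2e-18). PTPN11, the phosphatase SHP2 that FRS2 recruits, fell too (-0.35), and the adaptor gene CRKL rose (0.48). GRB2, which links FRS2 to SOS, did not pass (0.02, adjusted p = 0.46).

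In the RAS and ERK kinase module 9 of 14 fell and 2 rose, with a median of -0.15, beside 35% lower and 34.4% higher over all genes. Against a 1.2-fold change 4 fell and 1 rose, near the 36.1% of all genes called in either direction. NRAS fell from 195.4 ± 2.98 to 93.1 ± 2.55 CPM (-1.07). RPS6KA2, encoding a kinase activated by ERK, fell (-0.78), and MAP2K2, encoding MEK2, did not pass (0.02, adjusted p = 0.62).

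Most other genes of negative feedback went the way of SPRY4. Of 15 tested, 9 fell and 2 rose, with a median of -0.33, beside 35% lower and 34.4% higher over all genes. Against a 1.2-fold change the counts were again 9 lower and 2 higher, beside 36.1% of all genes called in either direction. DUSP6, the phosphatase for ERK and a widely used readout of FGF signalling, read 82.3, 85.0 and 82.2 CPM in controls, against 64.5, 66.1 and 64.5 under PERK siRNA (-0.35, SE 0.04, adjusted p = 4.7e-10). DUSP4 fell from 79.0 ± 0.41 to 35.0 ± 2.63 CPM (-1.18) and DUSP5 from 76.2 ± 1.84 to 45.9 ± 4.29 CPM (-0.74). SPRED2 (-0.33), the EGF receptor inhibitor gene ERRFI1 (-1.33) and LRIG1 (-0.91, with 55.1% of reads placed uniquely) fell, and SPRED1 did not pass (0.06, adjusted p = 0.14). SPRY1 had 6, 7 and 10 reads in the control samples and 1, 2 and 3 in the PERK siRNA samples and was under the filter. With no filter edgeR called it lower (-1.86, SE 0.71, adjusted p = 0.017), and DESeq2 did not call it (adjusted p = 0.086). The rises were those of IL17RD (0.50), which encodes the FGF signalling inhibitor SEF, and RASAL2 (1.00), both named after their values were seen.

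Transcripts known to respond to ERK were mostly lower, with 16 falls and 4 rises among 23 and a median of -0.48. Over all genes 35% fell and 34.4% rose. Against a 1.2-fold change 12 of the list fell and 3 rose, beside 36.1% of all genes called in either direction. EGR2, named after its values were seen, is among the falls at an adjusted p under 0.05. It had 57, 59 and 70 reads in controls and 11, 14 and 9 with PERK siRNA. It cleared the filter on low counts only through the control group, where it is high, so its call is a description. Of the ETS factor genes that FGF signalling induces, ETV4 fell from 76.4 ± 3.25 to 38.0 ± 1.72 CPM (-1.01, SE 0.04, adjusted p = 2.5e-18) and ETV5 from 106.2 ± 2.62 to 90.1 ± 1.55 CPM (-0.24). IER3 (-1.96), PHLDA1 (-1.48) and MCL1 (-0.60) fell. CCND1, cyclin D1, rose from 872.1 ± 25.5 to 1188 ± 43.1 CPM (0.45), and FOSL1 did not pass (0.06, adjusted p = 0.052, with 0.0024 without control sample 2). The genes MYC (0.21), EGR1 (1.00) and EPHA4 (0.37), named after their values were seen, were the remaining rises. All pathway lists together held 105 tested genes. Of these 55 fell and 26 rose (median -0.21), beside 35% lower and 34.4% higher over all genes. EGR2, SULF2 and FGF22 are included in these counts. Many of these genes respond to other receptors as well, and whether any receptor set their levels, or which, was not tested.

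**Figure D4:**
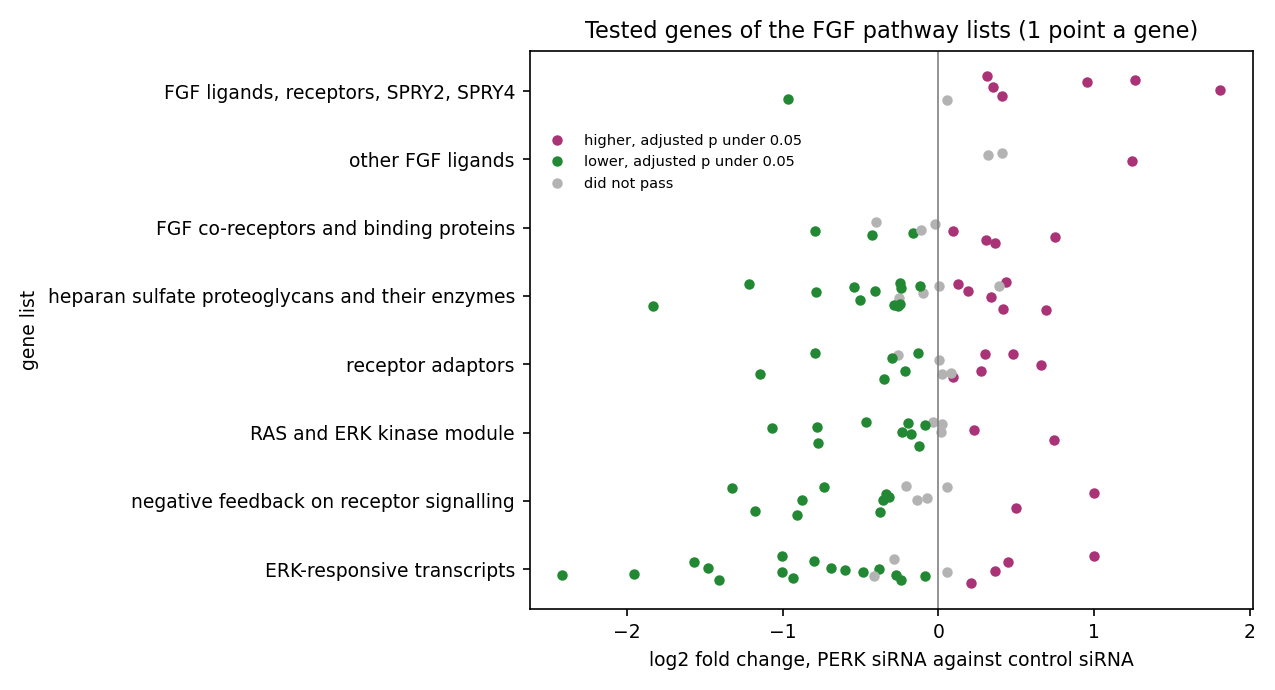
Log2 fold change (horizontal axis) of every tested gene of each list (vertical axis), 1 point a gene, coloured by whether it was higher, lower or did not pass at an adjusted p under 0.05. In the top row 6 points lie right of 0 and are called, whereas of the 23 ERK-responsive transcripts 16 are called left of 0.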

How the data were processed

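RNA sequencing of 6 LX-2 samples was analysed, grouped and numbered as their titles say. Libraries were made with a directional kit from column-purified RNA, per the labels' protocols, and per the submitters' processing notes the build was hg38. No aligner, read counter, annotation or use of strand is named (not given in the sources used here). Per the file headers, the authors deposited counts of total and of unique exon reads for each gene. They also deposited TPM, which matched total exon reads per exon length to within a relative difference of 7.1e-08. The 1484 rows with exon length 0 held no reads.

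Total exon reads were tested with edgeR 4.0.16 (R 4.3.3): quasi-likelihood, TMM factors, default expression filter, robust dispersion, no covariate. It was fitted to 12973 genes, with Benjamini-Hochberg adjustment over all of them at 0.05. SE is the fold change divided by the root of the F statistic. CPM use TMM factors. The alternatives tried were size factors by median ratio, by upper quartile or none, 2 other filters, DESeq2 1.42.0, limma-voom (limma 3.58.1), non-robust dispersion, unique exon reads, a replicate block, leaving out each sample, and 2 stricter thresholds. The script was tested on simulated data.

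Genes were named by rule: EIF2AK3, all 10 genes, SPRY1, SPRED1, SPRED2, DUSP6, FGFRL1, FRS2, KLB, ETV4, ETV5 and NUDT6, the 3 most abundant by TPM and the 3 with the smallest p of each pathway list, and the 2 closest in course to each of the 10 that changed at least 2-fold. Marker genes, and genes said to be so, are named outside it. Values of some genes that the rule names are not reported here. A list of 3 genes that overlap or lie beside members of the 10 (NUDT6, LETM1, FAM227B) gave 2 rises and no fall. That count was unstable: 1 rise was left with DESeq2, unique reads, no filter, the replicate block, either stricter threshold, or without control sample 2 or 3 or PERK siRNA sample 2 or 3, and 1 fall appeared with no factors, no filter or without control sample 3. The genes and lists were chosen with earlier results of these data known. Gene places are from GENCODE v29 (GRCh38), promoters from RefSeq (GRCh38.p14), read in Python 3.11.15. The chi-square per degree of freedom between samples of a group was 1.67 to 2.29, against 59.4 to 64.6 between groups, so none were taken for copies.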

Additional observations from a re-analysis of the deposited data

How the results depend on the processing

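Of the 8 tested genes, all kept their direction under the 18 alternatives, and 7 kept their side of the threshold. The 2 stricter thresholds reuse the fold changes of the main test, so direction could not change there. SPRY2 lost its call against a null of a 1.2-fold change (adjusted p = 0.14), where 5 of the 10 genes were higher in place of 6. The log2 fold change ranged from 1.2 to 1.31 for FGF1, 0.32 to 0.40 for FGF2, 0.93 to 0.99 for FGF5, 0.39 to 0.43 for FGFR1, 1.64 to 1.93 for FGFR3, 0.01 to 0.10 for FGFR4, 0.30 to 0.34 for SPRY2 and -1.02 to -0.88 for SPRY4. Over all genes, the test against a 1.2-fold change called 2345 higher and 2344 lower, in place of 4469 and 4545. Of 809 values of 45 other named genes, 781 kept direction and side of the threshold, 19 lost a call and 8 gained one. The log2 fold change of GLG1, which did not pass, was reversed without control sample 2 (0.0063, adjusted p = 0.86), and ranged from -0.0381 to 0.0063 as each sample was left out. Over the alternatives, the adjusted p of the log2 fold change of FOSL1 ran from 0.0024 to 1, of the log2 fold change of FGF22 from 0.0058 to 0.10, of the log2 fold change of NUDT6 from 0.0002 to 0.11, of the log2 fold change of SDC4 from 1.6e-18 to 0.58 and of SPRY2 from 1.8e-08 to 0.14. Same-numbered samples of the groups did not deviate together (correlations of 0.01, -0.03 and -0.03), so the numbers were not taken as pairs. With the replicate block 6 of the 10 genes were higher and 1 lower, as without it. FGF7 and SPRY1, with at most 12 reads in a sample, were under the filter, and FGFR2 had none to test. Using uniquely placed reads put the control level of FGF2 at 37.5 TPM in place of 39.1. The other genes of the 10 that had reads were all higher on that measure. FGFR1 stood at 56.2 TPM in place of 52.4, and SPRY2 at 35.3 in place of 32.9.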
